A study of Mus musculus with 21 samples.

Results

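The genes described here encode the proteins of the cytosolic ribosome. Members were all genes whose symbol in the platform annotation is Rpl or Rps followed by a number, with the suffixes x, a or l, together with the stalk proteins Rplp0, Rplp1 and Rplp2. A gene counted where its probe had a detection p below 0.01 on at least 3 of the 21 bead arrays. This gave 56 genes of 11034 tested, 22 of the small subunit and 34 of the large subunit. A further 6 symbols on the platform (Rpl14, Rpl17, Rpl39l, Rpl6, Rps20 and Rps23) had 1 probe each, detected on 0 of 21 arrays, and were not tested.

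The arrays came from a mouse model of rhabdomyosarcoma, a tumor with features of skeletal muscle, in which the Hedgehog pathway is switched on by SmoM2, a constitutively active form of Smoothened. There were 15 tumors from aP2-Cre/+;SmoM2/+ mice, 3 tumors from Myogenin-Cre/+;SmoM2/+ mice and 3 samples of normal sternocleidomastoid muscle from SmoM2/+ mice, for which no Cre was named. All 3 groups therefore carried the SmoM2 allele, on a mixed C57Bl/6 and 129X1/SvJ background, and no age was given in the labels used. In the tumors Cre was driven by the aP2 (Fabp4) promoter, active outside the muscle lineage, or by the promoter of Myogenin, a factor of differentiating muscle cells. Tumors are named by mouse number, and nothing said whether the 3 muscle samples came from separate animals, so their spread may be technical.

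A ribosome is built from a small subunit, which reads the messenger RNA, and a large subunit, which joins amino acids. Its proteins are made in near equal amounts, and the messenger RNAs of most of them start with a run of pyrimidines, the 5' terminal oligopyrimidine motif, through which the mTOR pathway sets their translation. A few ribosomal proteins have paralogs used in particular tissues. Rpl3l, which replaces Rpl3 in the ribosomes of mature striated muscle fibers, is the best known in this tissue.

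The sequences around the start sites are shown first, because they set the pyrimidine run of the core genes beside the promoter of Rpl3l. Of the 56 members, 47 had a promoter in the RefSeq table of build GRCm38.p6 (Rpl21, Rpl29, Rpl3, Rpl30, Rpl32, Rplp1, Rps14, Rps29 and Rps4l were not matched), and the first listed start of each gene was used. These 5 genes were among the genes higher in aP2-Cre tumors under every normalization tried, and were chosen with their changes known. Each window runs from 20 bases before the start to 10 bases after it, and capitals mark the longest run of C and T that overlaps the 10 bases on either side of the start.
Rps9, chr7:3704021-3704050, plus strand: gtccaaccgccttgTCTCTCTTTgtctcgg
Rps6, chr4:86857358-86857387, minus strand: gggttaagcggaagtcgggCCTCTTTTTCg
Rpl34, chr3:130730389-130730418, minus strand: cgcgccgCCTTCCCTgacgtacttcctgtc
Rps16, chr7:28350669-28350698, plus strand: taaagcccgCTTCTgtcgtgacgtagcact
Rpl19, chr11:98026690-98026719, plus strand: ccacgtgaccaaacgCCCTCactgcgcatg

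A run of 8 or more pyrimidines on the coding strand overlapped this window in 21 of 47 member promoters (44.7%), against 3651 of 27025 promoters in the table (13.5%). The median longest run was 7 bases for members and 4 for all promoters. Rps9, Rps6 and Rpl34 carried runs of 9, 10 and 8 bases, and Rps16 and Rpl19 runs of 5. The marked runs of Rps9 and Rps6 cross the listed start. Those of Rpl34, Rps16 and Rpl19 end before it, so they lie outside the transcript as listed. The counts of runs include such cases and are not counts of 5' terminal motifs. The promoter of Rpl3l is shown from 250 bases before its start to 10 bases after, with capitals marking CANNTG, the letters of the E-box bound by factors such as MyoD and Myogenin.
Rpl3l, chr17:24727576-24727835, plus strand: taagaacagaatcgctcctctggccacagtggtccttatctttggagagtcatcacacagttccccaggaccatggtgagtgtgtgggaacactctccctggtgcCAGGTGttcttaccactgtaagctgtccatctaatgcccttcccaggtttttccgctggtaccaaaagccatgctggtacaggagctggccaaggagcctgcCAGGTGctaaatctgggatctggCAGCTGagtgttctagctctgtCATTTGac

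This window held 4 matches to CANNTG, which reads the same on both strands. Shares were counted over a longer window, 250 bases before to 50 after each start, in which at least 1 match was found in 23 of 47 member promoters (48.9%) and in 72.1% of all promoters. Rpl3l was the single member with 4 or more, a number chosen after it was seen, and 6.4% of all promoters had as many. CAGCTG was found in 4.26% of member promoters and 16.1% of all, and TATAAA within 40 bases upstream of the start, on either strand, in 2.13% and 3.29%. A match describes letters and not a bound site.

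Across the arrays, 32.0 to 39.8% of probes were detected, with 33.2% ± 1.15 (SD, n = 3) in muscle, 37.6% ± 1.19 (n = 15) in aP2-Cre tumors and 36.1% ± 1.45 (n = 3) in Myogenin-Cre tumors. The value distributions of the authors' normalized table fell into 5 sets of arrays. Muscle shared a set with aP2-Cre tumors 128, 135 and 140, and the Myogenin-Cre tumors shared another with aP2-Cre tumors 89, 90 and 95, so muscle and Myogenin-Cre arrays never shared a set. Of 12 skeletal muscle fiber markers, 11 were measured and all were detected in each group. Their summed log2 levels were 154 to 155 in muscle, 125 to 145 in aP2-Cre tumors and 140 to 142 in Myogenin-Cre tumors. In bulk tissue, fewer cells of a type and less RNA per cell cannot be told apart. Levels below are log2 intensities after background correction and quantile normalization, changes are differences of these, and a gene was called where limma gave a Benjamini-Hochberg adjusted p below 0.05 over all 11034 genes.

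The clearest change was an opposite one in the paralogs Rpl3 and Rpl3l. Rpl3, a large-subunit protein next to the peptidyl transferase center, was at 12.16, 12.11 and 11.86 in the 3 muscle samples. It was at 13.44 to 14.19 (median 13.86) in the 15 aP2-Cre tumors and at 13.52, 13.82 and 13.65 in Myogenin-Cre tumors 41, 42 and 43. Every tumor lay above every muscle sample. Rpl3 rose 3.52-fold in aP2-Cre tumors (log2 change 1.82, SE 0.13, limma adjusted p = 1.13e-10). In Myogenin-Cre tumors it rose 3.08-fold (1.62, SE 0.16, adjusted p = 9.45e-08). The log2 difference between the tumor groups was 0.20 (95% interval -0.07 to 0.46, adjusted p = 0.304). In the intensities as deposited, Rpl3 was at 2789 to 4551 in muscle, 10241 to 19043 in aP2-Cre tumors and 11957 to 13918 in Myogenin-Cre tumors.

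Rpl3l was at 14.30, 14.26 and 14.38 in muscle. It was at 8.84 to 13.36 (median 11.92) in aP2-Cre tumors, lowest in tumor 115 and highest in tumor 90, and at 13.49, 12.30 and 13.07 in the Myogenin-Cre tumors. All 18 tumors lay below every muscle sample, and the aP2-Cre tumors were far more dispersed (SD 1.14) than muscle (SD 0.06). In aP2-Cre tumors Rpl3l fell 6.09-fold (log2 change -2.61, SE 0.60, limma adjusted p = 0.000703). The change in Myogenin-Cre tumors was not called (-1.36, 95% interval -2.97 to 0.25, adjusted p = 0.154). The model uses 1 spread per gene for all 3 groups, so this interval also carries the dispersion of the 15 aP2-Cre tumors. The SD was 0.61 among the Myogenin-Cre tumors. Centering arrays on the median of detected probes gave -2.12 there (adjusted p = 0.0304). The difference between the tumor groups was -1.24 (95% interval -2.49 to 0.00, adjusted p = 0.164). As deposited, Rpl3l read 22853 to 24773 in muscle and 583 to 11265 (median 3939) in aP2-Cre tumors, with 4955 to 11558 in Myogenin-Cre tumors.

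Both changes held among arrays of the one set that had muscle and aP2-Cre tumors. There Rpl3 rose by 1.66 (limma adjusted p = 8.08e-05) and Rpl3l fell by 2.32 (adjusted p = 0.000376) on the log2 scale. Without tumor 115 the change of Rpl3l in aP2-Cre tumors was -2.40 (adjusted p = 0.000106).

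**Figure D1:**
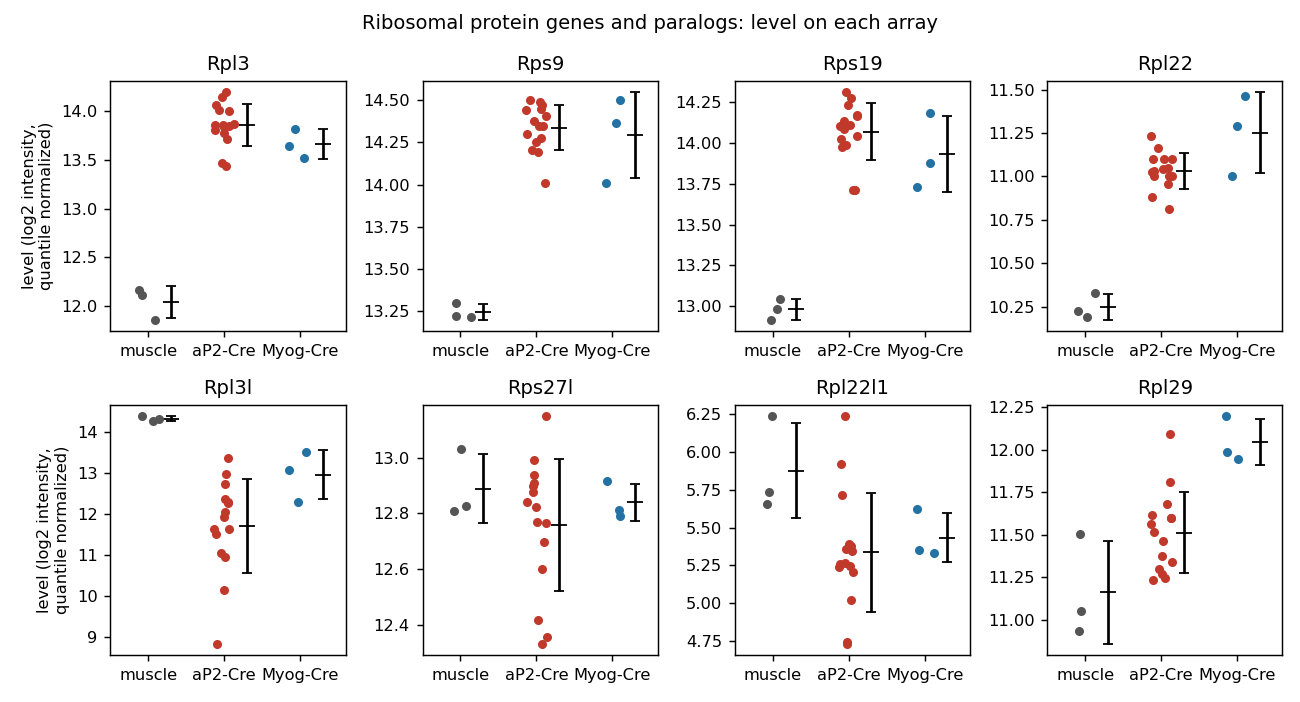
Level of 8 ribosomal protein genes on each array (log2 intensity, quantile normalized), 1 point per array, with bars giving the group mean and SD for muscle (n = 3), aP2-Cre tumors (n = 15) and Myogenin-Cre tumors (n = 3). Axes differ between panels and do not start at 0; every tumor lies above every muscle sample for Rpl3, Rps9, Rps19 and Rpl22 and below for Rpl3l, while the groups overlap for Rps27l.

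Among the 15 aP2-Cre tumors the level of Rpl3l followed the mean level of the 11 muscle fiber markers. Pearson's r was 0.92 (permutation p = 2e-05, adjusted 4e-05) and Spearman's rho 0.86 (permutation p = 0.00013, adjusted 0.00026), two-sided with 100000 permutations. Leaving out tumors 115 and 65, farthest from the median of the markers, gave r = 0.90, and removing the mean of each set of arrays gave 0.96. The 11 markers weighed unequally. Among these tumors the SD was 1.47 for Ckm and 1.70 for Myh4, but 0.09 for Acta1 and 0.096 for Mylpf. Against muscle 8 markers fell in aP2-Cre tumors and 4 in Myogenin-Cre tumors, beside 29.8% and 23.9% of all genes, and 0 rose. Acta1, Mylpf and Mb were not called in aP2-Cre tumors, at 0.06, 0.09 and -0.03. Rpl3 and Rpl3l ran against each other (r = -0.70, permutation p = 0.00374; rho = -0.70, permutation p = 0.0045, and the adjusted values were the same). Without tumors 128 and 90, farthest from the median of Rpl3, r was -0.62, and within sets it was -0.71. These were the only 2 relations computed, and the part of fiber content in the level of Rpl3l was not tested.

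**Figure D2:**
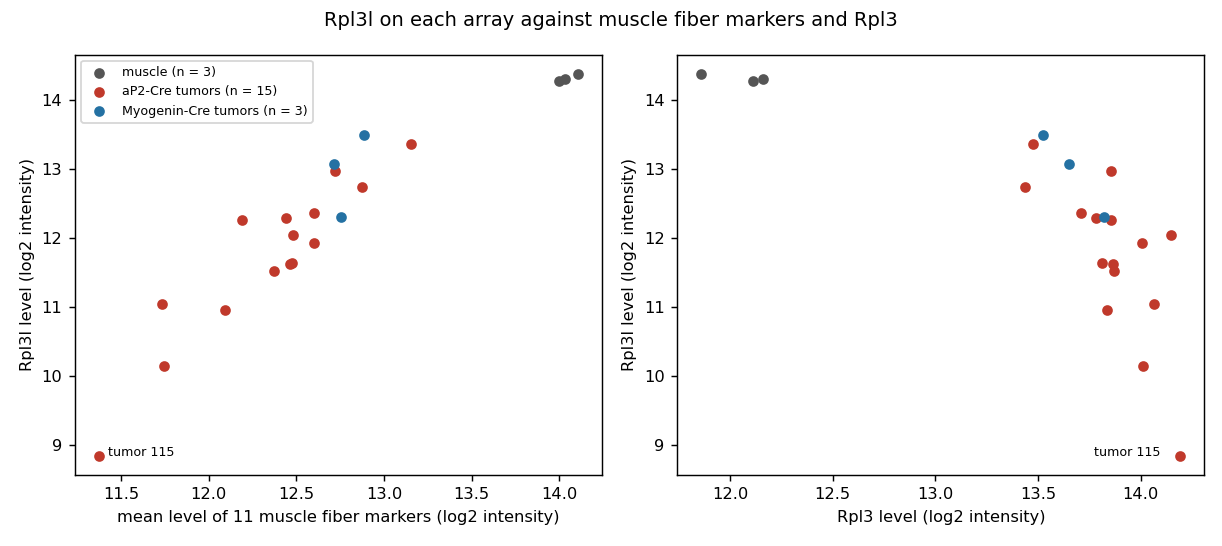
Level of Rpl3l (log2 intensity) on each array against the mean level of 11 muscle fiber markers (left) and against Rpl3 (right), 1 point per array. Among aP2-Cre tumors Rpl3l is highest where the markers are highest (r = 0.92, n = 15) and lowest where Rpl3 is highest (r = -0.70), and tumor 115 is the lowest for Rpl3l.

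Over all 56 genes the ribosomal proteins were higher in both kinds of tumor after quantile normalization. Centering arrays on the median of detected probes turned their median change in aP2-Cre tumors to -0.06, beside -0.14 over all genes. After quantile normalization 43 rose and 2 fell in aP2-Cre tumors, Rpl3l and Rpl22l1, and 11 were not called. Of all genes tested 63.8% were called, 34.0% higher and 29.8% lower. Their median log2 change was 0.58, beside 0.09 over all genes. All 15 tumors lay above every muscle sample for 37 members (25.1% of all genes) and below for 1 (22.9%). In Myogenin-Cre tumors 38 rose, 1 fell (Rpl7l1) and 17 were not called, while 49.1% of all genes were called, 25.2% higher and 23.9% lower. The median was 0.51 against 0.06 over all genes. All 3 tumors lay above every muscle sample for 45 members (32.1% of all genes) and below for 3 (30.4%), Rpl22l1, Rpl3l and Rpl7l1. Both tumor groups were set against the same 3 muscle samples.

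By subunit, of 22 small-subunit genes 18 rose and 0 fell in aP2-Cre tumors (median 0.60), and 15 rose and 0 fell in Myogenin-Cre tumors (median 0.55). Of 34 large-subunit genes 25 rose and 2 fell (median 0.57), and 23 rose and 1 fell (median 0.50). These counts are for quantile-normalized values.

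**Figure D3:**
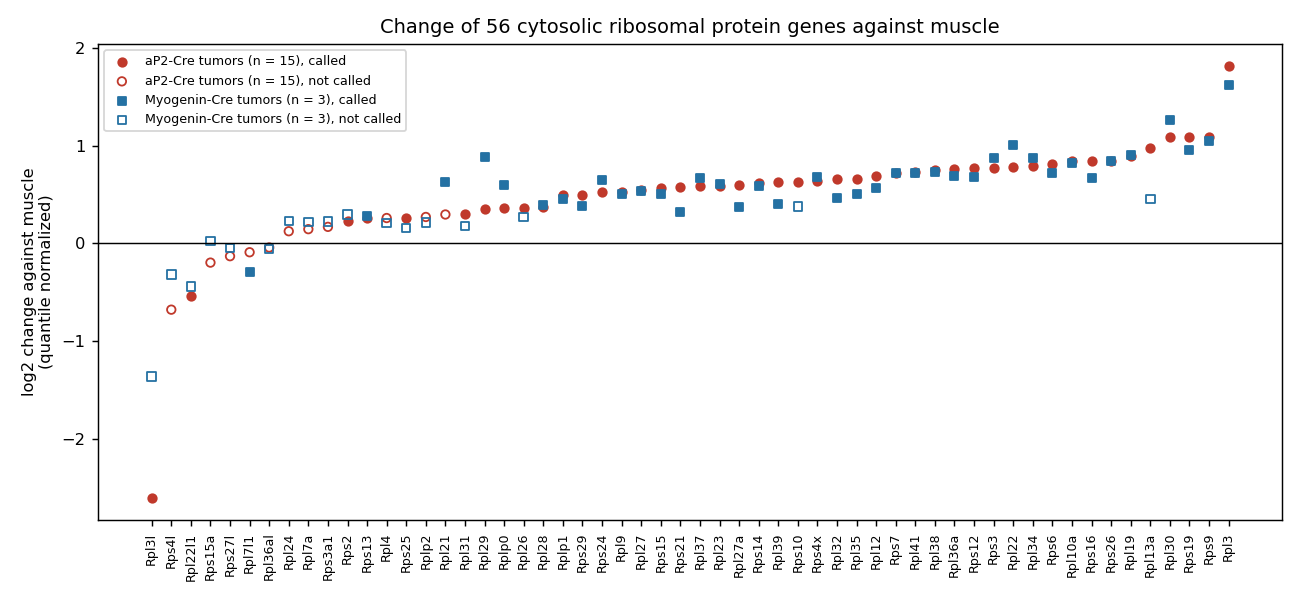
Log2 change against muscle (quantile normalized) of each of the 56 genes, ordered by the change in aP2-Cre tumors, with filled symbols for genes called by limma. The aP2-Cre values run from -2.61 for Rpl3l to 1.82 for Rpl3, with a median of 0.58, beside 0.09 over all genes. When arrays are centered on the median of detected probes these medians become -0.06 and -0.14.

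The size of the general shift depended on how arrays were scaled. Against muscle the median member turned negative only in aP2-Cre tumors, and only with centering on the median of detected probes. With that centering the median over all genes was lower still. The members sit at the bright end of the range, where muscle and tumor arrays differed in shape. Of the 500 brightest genes, ribosomal proteins made up 37 to 39 on muscle arrays, 40 to 43 on aP2-Cre arrays and 41 to 42 on Myogenin-Cre arrays. With arrays centered on the median of detected probes, the log2 difference from muscle at the 100th brightest probe was -0.89 in aP2-Cre tumors and -0.68 in Myogenin-Cre tumors. Quantile normalization removes that gap. With centering, 10 members were higher and 15 lower in aP2-Cre tumors, beside 25.3% and 36.1% of all genes. Their median was -0.06 beside -0.14 over all genes. In Myogenin-Cre tumors 13 were higher and 7 lower, beside 19.6% and 28.2% of all genes, with a median of 0.02 beside -0.11.

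**Figure D4:**
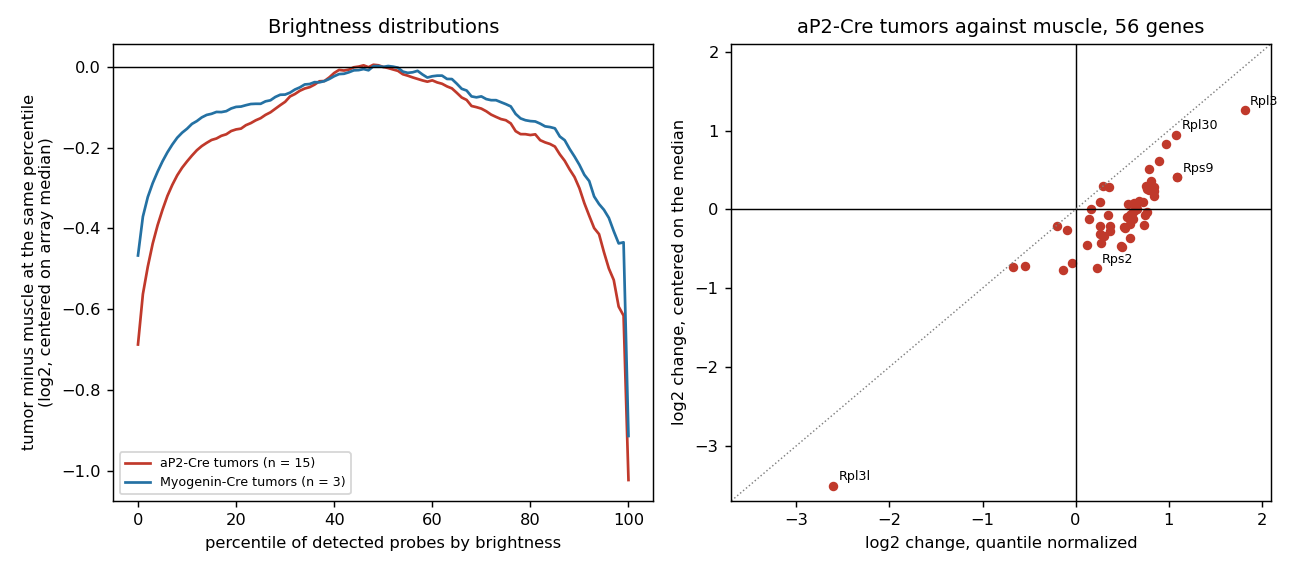
Left, mean log2 brightness of tumor minus muscle arrays at each percentile of detected probes, after centering on the array median. Right, log2 change in aP2-Cre tumors of each of 56 genes after centering against its change after quantile normalization, with a dotted line of equality. Rpl3 stays above 0 and Rpl3l below 0 on both scales. The median member moves from 0.58 to -0.06, and the median over all genes from 0.09 to -0.14.

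Signal near the upper end of the scale was common among members. Their intensity as deposited reached at least 50% of the array's highest on 1 or more arrays for 18 of 56. Such members numbered 1 to 6 on muscle arrays, 7 to 15 on aP2-Cre arrays and 10 to 12 on Myogenin-Cre arrays. The threshold differed between arrays. The highest value was 44753 to 52313 on muscle arrays, 33039 to 49606 on aP2-Cre arrays and 34206 to 40506 on Myogenin-Cre arrays. The counts therefore do not compare the groups at 1 intensity. On each array 1 probe held the highest value. This does not show whether a ceiling was reached, because probes at a ceiling need not read exactly the same. The 3 brightest members by mean level were Rplp1, Rpl41 and Rps2, and the 3 dimmest Rpl22l1, Rps4l and Rpl21. Rpl41, a very small basic protein of the large subunit, read 20677 to 28639 in muscle and 28747 to 44318 in aP2-Cre tumors as deposited. Rps2, of the small subunit, overlapped between these groups, at 23569 to 34022 and 20869 to 39355. Whether such signals are compressed was not tested.

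Some members were called in the same direction under all 8 scalings, which were 4 forms of quantile normalization, 3 centerings and cyclic loess. In aP2-Cre tumors 10 were higher in all 8 (Rpl13a, Rpl19, Rpl22, Rpl3, Rpl30, Rpl34, Rps16, Rps19, Rps6 and Rps9) and Rpl3l was lower in all 8. In Myogenin-Cre tumors 11 were higher in all 8 (Rpl10a, Rpl19, Rpl22, Rpl29, Rpl3, Rpl30, Rpl34, Rps19, Rps26, Rps3 and Rps9), and Rpl3l was called lower in 2 of 8. In aP2-Cre tumors 8 members were called in opposite directions by different scalings (Rpl23, Rpl28, Rpl31, Rpl9, Rplp1, Rps13, Rps2 and Rps29), and in Myogenin-Cre tumors Rplp1 and Rps29 were. The shares of all genes called in all 8 scalings, or in opposite directions, were not counted. These counts therefore do not set the members apart from other genes.

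Of the genes kept under every scaling, Rps9 and Rps19 of the small subunit and Rpl30 of the large changed most after Rpl3 in aP2-Cre tumors. Rps9 was at 13.22, 13.30 and 13.22 in muscle, at 14.01 to 14.50 (median 14.35) in aP2-Cre tumors and at 14.01, 14.50 and 14.36 in Myogenin-Cre tumors. The tumors did not overlap muscle, and Rps9 rose 2.13-fold (limma adjusted p = 4.82e-09) and 2.07-fold (adjusted p = 9.25e-07). The log2 change ran from 0.41 to 1.09 over the 8 scalings in aP2-Cre tumors.

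Rps19, the protein most often mutated in human Diamond-Blackfan anemia, was at 12.98, 13.04 and 12.92 in muscle, at 13.71 to 14.31 (median 14.10) in aP2-Cre tumors and at 13.73, 14.19 and 13.88 in Myogenin-Cre tumors. The groups did not overlap, with rises of 2.13-fold (limma adjusted p = 3.45e-08) and 1.93-fold (adjusted p = 1.57e-05). A second probe of Rps19 was near background, at a mean level of 5.72 and detected on 18 of 21 arrays, against 13.9 for the probe used. It was lower in aP2-Cre tumors, at -1.30 (limma adjusted p = 1.93e-07), and in Myogenin-Cre tumors, at -0.86 (adjusted p = 0.00103). Averaging both probes gave -0.11 and 0.045 (adjusted p = 0.809 for the latter), so the rise rests on the brighter probe. Rpl30 was at 8.78, 8.65 and 8.72 in muscle, at 9.28 to 10.22 (median 9.78) in aP2-Cre tumors and at 9.96, 10.15 and 9.83 in Myogenin-Cre tumors. It also did not overlap, rising 2.12-fold (adjusted p = 2.04e-05) and 2.40-fold (adjusted p = 0.000135). Its second probe gave log2 changes of 0.53 (adjusted p = 0.00529) and 0.35 (adjusted p = 0.16, not called).

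Rps6, the substrate of the S6 kinases, rose 1.76-fold in aP2-Cre tumors (limma adjusted p = 2.74e-05) and 1.64-fold in Myogenin-Cre tumors (adjusted p = 0.0023). Rpl13a, which in human cells also leaves the ribosome to silence certain messenger RNAs, rose 1.97-fold in aP2-Cre tumors (adjusted p = 0.000391). Its log2 change in Myogenin-Cre tumors was 0.45 (95% interval -0.12 to 1.02, adjusted p = 0.179). Rpl19 rose 1.86-fold and 1.87-fold, and Rpl34 1.73-fold and 1.83-fold.

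Several members had probes that disagreed, so that their changes depended on the probe. The second probe of Rpl38 gave -0.11 in aP2-Cre tumors and -0.14 in Myogenin-Cre tumors, against 0.75 and 0.73 for the probe used. The second probe of Rps3 gave 0.052 and -0.099, neither called, against 0.77 and 0.87. The second probe of Rpl29 gave -0.37 (limma adjusted p = 0.0709) in aP2-Cre tumors, against 0.35, and 0.89 in Myogenin-Cre tumors, against 0.88. The other probes of Rpl31 gave 1.22 and 1.13 in aP2-Cre tumors, against 0.30.

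The other paralog pairs gave mixed calls. Rpl22, a large-subunit protein, was at 10.19, 10.33 and 10.22 in muscle, at 10.81 to 11.23 (median 11.03) in aP2-Cre tumors and at 11.005, 11.29 and 11.46 in Myogenin-Cre tumors. No tumor overlapped muscle, and it rose 1.72-fold (limma adjusted p = 7.97e-08) and 2.01-fold (adjusted p = 3.19e-07). Its paralog Rpl22l1 was near background, detected in 2 of 3 muscle samples, 9 of 15 aP2-Cre tumors and 3 of 3 Myogenin-Cre tumors. It was at 6.24, 5.74 and 5.66 in muscle and at 4.73 to 6.24 (median 5.27) in aP2-Cre tumors, which overlapped, and it fell by 0.54 on the log2 scale (adjusted p = 0.0421). The call was lost without muscle sample 1 (adjusted p = 0.257) or 2 (adjusted p = 0.0636), and with the set of arrays as a covariate (adjusted p = 0.0704). Its change in Myogenin-Cre tumors was -0.44 (adjusted p = 0.219). The deposited intensities of Rpl22l1 were not lower in tumors. They were 131 to 157 in muscle, 146 to 190 (median 163) in aP2-Cre tumors and 159 to 163 in Myogenin-Cre tumors. The fall thus appears only in normalized values.

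Rpl36a rose by 0.76 in aP2-Cre tumors (limma adjusted p = 1.24e-05) and by 0.69 in Myogenin-Cre tumors (adjusted p = 0.001), calls that centering on detected probes lost (0.30, adjusted p = 0.053, and 0.35, adjusted p = 0.102). Rpl36al, its autosomal copy, was not called, at -0.04 (95% interval -0.20 to 0.12) and -0.06, while centering on detected probes gave -0.68 and -0.54, both called. Rps4x rose by 0.63 and 0.68, where centering on detected probes gave -0.01 in aP2-Cre tumors. Rps4l, detected in 12 of 15 aP2-Cre tumors, was not called at -0.68 (95% interval -1.47 to 0.11) and -0.32, but was lower among arrays of the shared set, at -1.32 (adjusted p = 0.000677). Its deposited intensities in that set were close, at 164, 171 and 144 in aP2-Cre tumors 128, 135 and 140. Muscle read 173, 159 and 152. Over all 15 aP2-Cre tumors Rps4l read 144 to 269 (median 181). These values are near background, and the lowest intensity was smaller on muscle arrays. They therefore do not decide whether Rps4l fell.

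Rps27l, a paralog of Rps27 induced by p53, was at 13.03, 12.81 and 12.83 in muscle and at 12.33 to 13.15 (median 12.82) in aP2-Cre tumors. The groups overlapped, with a change of -0.13 (95% interval -0.41 to 0.15, limma adjusted p = 0.403), while centering gave -0.77 (adjusted p = 7.96e-05). Rpl7l1, related to Rpl7, was at 9.49, 9.41 and 9.46 in muscle and at 9.09, 9.24 and 9.15 in Myogenin-Cre tumors, all lower. It fell by 0.29 there (adjusted p = 0.0471), a call lost without any 1 of the 6 arrays (adjusted p from 0.0547 to 0.132), and was at -0.09 in aP2-Cre tumors (adjusted p = 0.405). With the set covariate the change in aP2-Cre tumors was -0.28 (adjusted p = 0.0206), also called within the shared set (adjusted p = 0.0394), while centering on all probes gave 0.32 (adjusted p = 0.0815). Rpl39 rose by 0.62 and 0.41, and centering gave -0.03 and -0.05. Rps27, Rpl7, Rpl10 and Rpl10l were not analysed here.

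The stalk proteins, which recruit elongation factors to the large subunit, were called in part. Rplp0, the base of the stalk, rose by 0.36 in aP2-Cre tumors (limma adjusted p = 0.0229) and by 0.60 in Myogenin-Cre tumors (adjusted p = 0.00689). The call in aP2-Cre tumors was lost without muscle sample 1 (adjusted p = 0.0772) or 2 (adjusted p = 0.172), and at 0.25 with the set of arrays as a covariate (adjusted p = 0.209) or within the shared set (adjusted p = 0.221). Rplp1 rose by 0.49 (adjusted p = 1.82e-06) and 0.46, but centering on detected probes gave -0.46 (adjusted p = 0.000499) and -0.43. Rplp2 was not called, at 0.27 (adjusted p = 0.104) and 0.22 (adjusted p = 0.349). In aP2-Cre tumors it was called higher with the set covariate (0.26, adjusted p = 0.0171) and within the shared set (adjusted p = 0.0398), and lower with centering on detected probes (-0.43, adjusted p = 0.00383).

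Few differences were called between the tumor groups. Between aP2-Cre and Myogenin-Cre tumors 0 members were called higher, 1 lower and 55 not called, beside 8.08% and 7.68% of all genes, with a median difference of 0.02 beside 0.01, and the levels of all 56 overlapped, where 3.23% of all genes had every aP2-Cre array above and 2.40% every one below. The shares of all genes called were themselves unstable, at 2.82% higher and 2.76% lower without Myogenin-Cre tumor 41, 10.8% and 9.11% without 42 and 1.78% and 1.54% without 43. With the set of arrays as a covariate they were 1.82% and 1.89%, with 0 members higher and 2 lower, and in the shared set 0.299% and 0.109%. The gene called was Rpl29, a large-subunit protein. It was at 11.50, 11.05 and 10.93 in muscle, at 11.23 to 12.10 (median 11.52) in aP2-Cre tumors and at 11.95, 12.20 and 11.99 in Myogenin-Cre tumors. It rose by 0.35 in aP2-Cre tumors (limma adjusted p = 0.0402, lost at 0.16 without muscle sample 2, at 0.254 without sample 3 and at 0.0861 with the set of arrays as a covariate) and by 0.88 in Myogenin-Cre tumors (adjusted p = 0.000572). The difference was -0.53 (95% interval -0.83 to -0.23, adjusted p = 0.0179), and its second probe, which was not called higher in aP2-Cre tumors than in muscle (-0.37), gave -1.26 (adjusted p = 9.81e-05). The call was lost without Myogenin-Cre tumor 41 (adjusted p = 0.0592), 42 (0.0712) or 43 (0.0894), and among arrays of the shared set, where the difference was -0.76 (adjusted p = 0.0521).

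Within the 15 aP2-Cre tumors members varied less than most genes, with a median SD of 0.18 against 0.28 over all genes. The SD was lowest for Rpl41 (0.057) and highest for Rpl3l (1.14), and the bright end of a quantile-normalized array is held to a shared shape. Per tumor, 46 to 53 of 56 members lay above their muscle mean in aP2-Cre tumors and 50 to 51 in Myogenin-Cre tumors. The median member lay 0.40 to 0.74 above muscle in aP2-Cre tumors and 0.40 to 0.63 above in Myogenin-Cre tumors. After centering on detected probes these became -0.19 to 0.31 and -0.01 to 0.08. Tumor 104 was the highest on both scales.

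Other genes of ribosome synthesis and translation both rose and fell, as did genes in general. Of all genes 34.0% rose and 29.8% fell in aP2-Cre tumors, and 25.2% rose and 23.9% fell in Myogenin-Cre tumors. Of 33 measured ribosome biogenesis genes 11 rose and 6 fell in aP2-Cre tumors (median 0.13), and 9 rose and 6 fell in Myogenin-Cre tumors (median -0.02). Rrp1b, a nucleolar protein, rose by 0.99 and 0.83, and Eif6, which keeps the large subunit from joining early, by 0.65 and 0.73. Gnl3l was lower, at -0.61 and -0.79, as was Emg1, at -0.53 and -0.85. Of 16 RNA polymerase I genes 4 rose and 5 fell, and 2 rose and 5 fell. Rrn3, its initiation factor, was at -0.75 and -0.73, while Polr2h rose by 0.67 and 0.61 and Ubtf by 0.50 and 0.53. These counts were read beside the shares of all genes given above, and no list was tested as a set.

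Of 28 initiation factors 8 rose and 10 fell in aP2-Cre tumors, beside 34.0% and 29.8% of all genes. In Myogenin-Cre tumors 8 rose and 6 fell, beside 25.2% and 23.9%. The helicase Eif4a1 rose by 1.32 and 1.22, and the cap-binding protein Eif4e was at -1.34 and -1.52. Of 9 elongation factor genes 2 rose and 3 fell, and 1 rose and 3 fell. Eef1a1, the general form of the factor that brings aminoacyl-tRNA, rose by 1.62 (limma adjusted p = 2.47e-13) and 1.61. Eef1a2, the form of adult muscle and neurons, was at -1.66 (adjusted p = 0.000239) and -1.21 (adjusted p = 0.0282). The pair thus moved in opposite directions, as Rpl3 and Rpl3l did in aP2-Cre tumors. Of 11 growth control genes 1 rose and 4 fell, and 2 rose and 3 fell, with Eif4ebp2, an inhibitor of Eif4e, at -1.65 and -1.08.

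Markers of other cells also differed between the groups, and their counts are read beside the shares of all genes given above. All 10 macrophage markers measured rose in aP2-Cre tumors and 1 rose in Myogenin-Cre tumors, with summed levels of 71.0 to 79.0 in muscle, 89.9 to 106 in aP2-Cre tumors and 78.2 to 84.3 in Myogenin-Cre tumors. All 7 adipocyte markers fell in aP2-Cre tumors and 6 fell in Myogenin-Cre tumors, from sums of 71.8 to 73.6 to 43.7 to 56.4 and 51.8 to 55.0. Of 6 proliferation genes 4 rose and 2 rose, with sums of 31.6 to 34.1, 34.2 to 44.4 and 34.4 to 43.5. The 5 lymphocyte markers measured were not called in either comparison and none was detected in muscle. Of 3 erythroid markers 2 fell in aP2-Cre tumors, Hba-a1 by 1.95 and Alas2 by 3.38, and 0 were called in Myogenin-Cre tumors, with sums of 31.2 to 33.03, 20.4 to 34.1 and 30.6 to 34.9. Of 7 endothelial markers 2 rose and 3 fell in aP2-Cre tumors and 2 rose in Myogenin-Cre tumors, with sums of 63.1 to 64.3, 60.5 to 65.3 and 63.3 to 65.2. The part of all these cells in the ribosomal protein levels was not tested.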

How the data were processed

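Per the labels' protocols, RNA was extracted with Trizol, cleaned on columns and labelled as biotinylated cRNA for bead arrays, and the submitters' processing notes name BeadStudio. The deposited intensity values were not normalized, and the authors also deposited a detection p-value for each probe and array. Their second table held normalized intensity values in 5 sets of arrays. From the intensities, neqc in limma 3.58.1 (R 4.3.3) subtracted background, added an offset of 16 and quantile normalized 45281 probes on 21 arrays. Probes detected at p below 0.01 on at least 3 arrays were kept (19655). Of all probes 34885 had 1 gene symbol, 18 several and 10378 none, and the brightest kept probe stood for each of 11034 genes. One limma model with 3 groups (lmFit, eBayes with trend, two-sided, Benjamini-Hochberg) gave 3 comparisons. It was also run on simulated data with independent noise and few changed genes. These data held no sets of arrays and no difference in brightness shape, so the run does not bear on scaling. The number of arrays limits precision, and p-values measure the spread between these samples. Named were all paralog pairs and stalk proteins, the 4 largest called rises and falls per comparison and the 3 brightest and dimmest members. From related lists, examples were taken among the 4 genes a direction with the smallest adjusted p. Genes called under every scaling, and those whose probes disagreed, were chosen after their values were seen. The members and lists were chosen with earlier results of these data known. Promoters came from RefSeq, GRCm38.p6.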

Additional observations from a re-analysis of the deposited data

Results flagged for a closer look

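Rpl29 differed between the tumor groups, measured directly in limma, by -0.531 on the log2 scale for aP2-Cre minus Myogenin-Cre tumors (adjusted p = 0.0179, n = 15 and 3). The levels of the groups overlapped. The call was lost without Myogenin-Cre tumor 41, 42 or 43 (adjusted p from 0.0592 to 0.0894). Centering on the median of all probes gave -0.43 (adjusted p = 0.165). Single-array outliers were not sought, because the groups held 15 or 3 arrays.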

How the results depend on the processing

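Scaling mattered most. Against muscle, centering on the median of detected probes gave 10 higher and 15 lower (median -0.063) in aP2-Cre tumors, beside 25.3% and 36.1% of all genes. In Myogenin-Cre tumors it gave 13 and 7 (median 0.021), beside 19.6% and 28.2%. Between tumor groups 2 were lower (median -0.13), beside 8.76%. The authors' normalized values gave 27 and 1 (0.33) in aP2-Cre tumors, beside 28.1% and 26.5%. In Myogenin-Cre tumors they gave 13 and 0 (0.32), beside 19.5% and 17.2%, and 0 were lower between tumors, beside 2.92%. Centering on the median of all probes, on the 90th percentile of detected probes, and cyclic loess were chosen after seeing the data, as was leaving out tumor 115. The first gave 35 and 1 (0.51), beside 45.9% and 15.6% of all genes, and 18 and 0 (0.39), beside 26.7% and 12.7%. It gave 0 lower between tumors, beside 2.05%, and all genes shifted by 0.44 and 0.25. The second gave 29 and 5 (0.24), beside 36.8% and 24.9%, and 23 and 1 (0.26), beside 27.8% and 20.1%. Its median between tumors was -0.075. Cyclic loess gave 24 and 6 (0.19), beside 30.2% and 30.6%, and 18 and 7 (0.15), beside 22.7% and 25.1%. Averaging probes gave 0 lower in Myogenin-Cre tumors, beside 25.3% of all genes. Array weights gave 6 higher and 2 lower between tumors, beside 15.1% and 13%, and the set covariate 2 lower, beside 1.89%. Arrays of the shared set gave 5 lower in aP2-Cre tumors, beside 28.2%, and 0 between tumors. Without members near the top of the scale, a smaller list of 38, 27 and 1, and 23 and 1, were called. No background correction, an offset of 50, no detection filter and a filter by group kept all counts within 1.5 times. Leaving out 1 array of muscle or Myogenin-Cre tumors gave 39 to 42 higher and 1 to 2 lower in aP2-Cre tumors, 34 to 38 higher and 0 lower in Myogenin-Cre tumors (medians 0.46 to 0.59), and 0 to 1 higher and 0 to 1 lower between tumors (medians -0.03 to 0.06); the call of Rpl29 between tumors was lost without any 1 Myogenin-Cre tumor (41, 42 or 43).

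Single genes reversed as follows. With centering on detected probes in aP2-Cre tumors, Rpl39 was at -0.035, Rps4x at -0.011, Rplp1 at -0.46, Rplp2 at -0.43 and Rpl29 at -0.065, and in Myogenin-Cre tumors Rpl39 was at -0.052 and Rplp1 at -0.43. Averaging probes in aP2-Cre tumors gave -0.11 for Rps19 and -0.0083 for Rpl29. Rplp1 was at -0.065 in Myogenin-Cre tumors with all-probe centering, at -0.16 and -0.19 with the 90th percentile, and at -0.14 and -0.28 with cyclic loess, in aP2-Cre and Myogenin-Cre tumors. Of 1101 values for named genes, 965 kept direction and call, 56 lost and 27 gained a call, 14 reversed, and 39 that were called neither way changed sign. The cause was not tested. No paired analysis was possible because the groups share no mouse numbers. Members near background (Rpl22l1 and Rps4l) are limited by signal.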
